A study of Mus musculus with 4 samples.

Results

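The genes described here make, load, take up and degrade the neurotransmitter GABA, set the chloride gradient that GABA-A receptors act on, or encode the GABA-B receptor. They were chosen by name, as 9 genes fixed for their roles (Gad1, Gad2, Slc32a1, Slc6a11, Abat, Slc12a2, Slc12a5, Gabbr1 and Gabbr2), and all 9 were found among the 19968 genes listed in both deposited tables. RNA sequencing was done on the dissected cortex of embryos of the mouse strain C57BL/6, taken at embryonic day 15, with 2 µg of total RNA per library. The groups were embryos labelled Prdm16cKO, a conditional knockout of the zinc-finger transcriptional regulator Prdm16, and controls labelled Prdm16fl/fl, which carry the floxed allele without a knockout label. The Cre line and the deleted exon are not given in the labels. The tables held 2 cKO libraries and 1 floxed library, so an error can be given for the cKO group only. Every floxed level is that of 1 library.

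GABA is made from glutamate by glutamate decarboxylase, packed into vesicles by a vesicular transporter, cleared by carriers of the plasma membrane and broken down by GABA transaminase. In the embryonic cortex it comes largely from interneurons that migrate in from the ventral forebrain. Young neurons hold much chloride, loaded by the importer NKCC1, so that GABA-A receptors depolarise them, and the later rise of the exporter KCC2 turns the response to inhibition. GABA-B receptors are heterodimers that signal through G proteins and not through chloride.

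The library totals were 19518174 and 18581791 counts in cKO and 17841685 in floxed, and a count of 0 would allow up to 0.154 and 0.161 CPM (counts scaled to a library total of 1000000) in cKO and 0.168 in floxed. Prdm16 itself had 676 and 447 counts in the cKO libraries against 538 in floxed, which is 34.6 and 24.1 CPM against 30.2 CPM, so its level goes against the label of cKO 1. The counts are summed over every exon, and loss of single exons was not tested. The names cKO 1 and cKO 2 stand for the libraries labelled so throughout, and each direction given rests on those labels. The libraries also stood apart in non-neural cells. Summed over 16 markers of meninges and fibroblasts the level was 1149 CPM in cKO 1 and 316.5 CPM in cKO 2, against 796.1 CPM in floxed. Markers of endothelium (459.4 and 234.9 against 373.6 CPM) and of pericytes and smooth muscle (351.6 and 163.7 against 289.8 CPM) ran in the same order. Radial glia and pan-neuronal markers, which define the labelled tissue, were all present, at 3207 and 3052 CPM in cKO against 2425 CPM in floxed, and at 8007 and 8482 CPM against 8430 CPM. In bulk tissue, fewer cells of a type and less RNA per cell cannot be told apart.

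The 250 bases before the start that RefSeq gives are shown for the uptake carrier Slc6a11, whose fitted fold between the groups was the largest of the 9. The sequence is from RefSeq (GRCm38.p6), on the plus strand at chr6:114130991-114131240, and capitals mark the GC box GGGCGG or its reverse complement.
Slc6a11: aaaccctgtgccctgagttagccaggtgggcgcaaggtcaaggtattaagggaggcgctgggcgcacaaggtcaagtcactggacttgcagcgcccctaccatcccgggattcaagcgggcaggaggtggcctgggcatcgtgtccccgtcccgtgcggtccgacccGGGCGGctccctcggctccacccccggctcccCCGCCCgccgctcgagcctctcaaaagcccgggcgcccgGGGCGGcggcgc
Of the 9 genes, 7 had such a window. The window of Slc6a11 shares no base with an exon of the gene in GENCODE M21, while those of Gad1 and Gad2 share 87 and 122 bases with exons of their genes and are not shown. The GC box occurred 3 times before Slc6a11, and 32.7% of all 32851 windows held it. It was also in windows of Gabbr1, Gabbr2, Gad1 and Slc12a5. The palindromes TAATTA (homeodomain core, in 4.84% of windows) and TGACGTCA (cAMP response element, 1.55%) were in none of the windows of these 7 genes. The E-box CACGTG (6.02%) was only in the downstream of the pair of windows of Slc12a5. Both strands were searched, and none of the matches overlapped another. CpG pairs numbered 25 in the window of Slc6a11, against a median of 6 over all windows. The other windows of these genes held between 12 and 37. A match is a match of letters only and no factor was measured here.

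**Figure D1:**
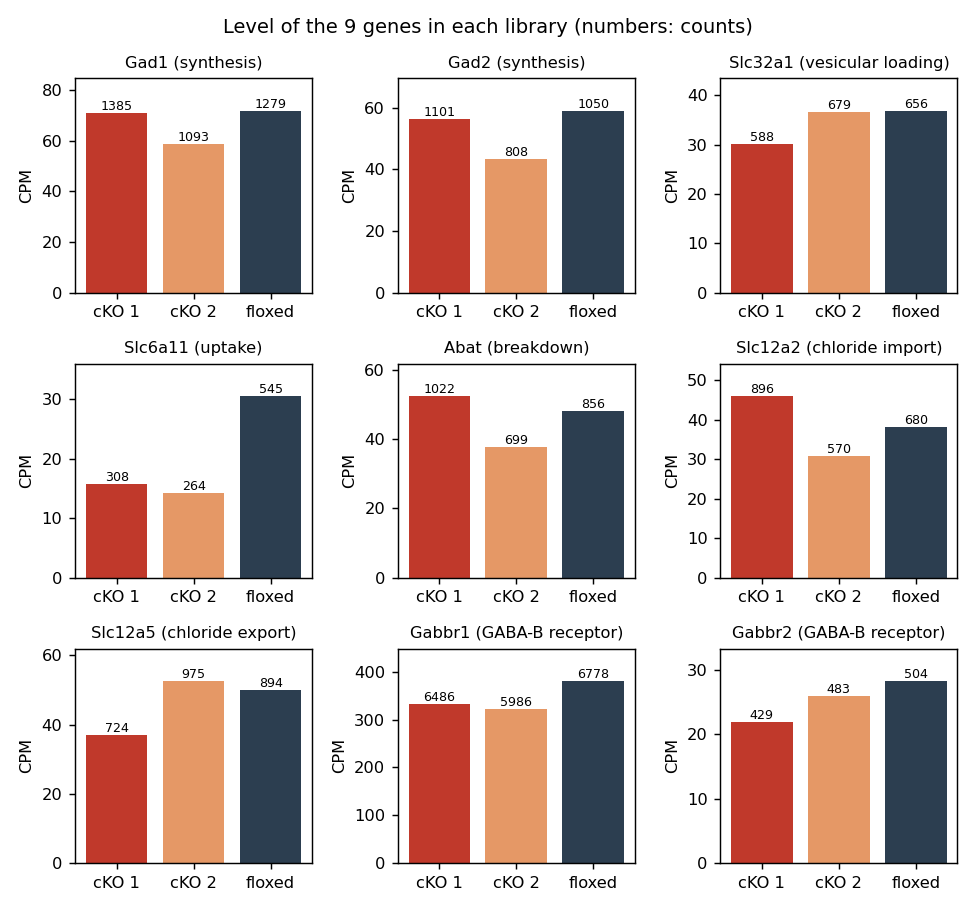
Level of each of the 9 genes in CPM (vertical axis, from 0) in the libraries cKO 1, cKO 2 and floxed, with the count above each bar. Slc6a11 stands at 15.8 and 14.2 CPM in cKO against 30.5 CPM in floxed, while the other genes differ less and 3 of them have floxed between the cKO libraries.

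No gene of the set passed the test. The edgeR quasi-likelihood test of both cKO libraries against floxed called 0 of the 9 genes with p-values adjusted by Benjamini-Hochberg and a threshold of 0.05, and it called 0 of all 16725 genes tested (0.0%). At an unadjusted p under 0.05 it had 217 genes (1.3%), 1 of them, Slc6a11, in the set. DESeq2 called 5 genes (0.025% of 19968), none of them in the set. All 9 genes passed the filter on low counts. Their median fitted log2 fold was -0.14, beside 0.01 over all genes tested. Both cKO libraries lay below floxed in 6 genes, a pattern that 31.8% of all genes tested showed, and both lay above it in 0 genes, against 27.7%. In the other 3 the floxed library lay between the cKO libraries.

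Each cKO library was also set against floxed by the ratio of their CPM, with an exact 95% interval that covers counting error only. Both comparisons use the same floxed library. In cKO 1 the interval lay below 1 in 5 of the 9 genes and above 1 in 1 gene, where 16.0% and 17.8% of all genes tested did so. In cKO 2 it lay below 1 in 6 genes and above 1 in 0, against 24.5% and 16.1%. The interval narrows as counts rise, so these shares depend on level as well as on the size of a difference. The 9 genes had at least 264 counts in each library. Of the 16725 genes tested, 11553 had a mean of at least 5 CPM. Shares among genes of like level were not taken, here or for the lists below. The medians of the log2 ratios were -0.19 in cKO 1 and -0.29 in cKO 2, beside 0.01 and -0.04 over all genes tested.

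**Figure D2:**
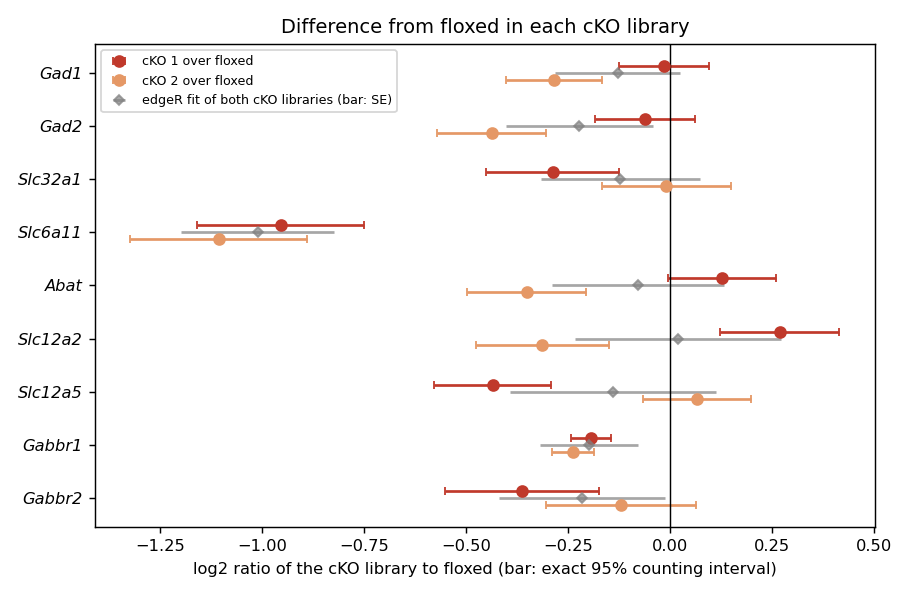
Log2 ratio of each cKO library to floxed for the 9 genes, with exact 95% counting intervals (circles), and the edgeR log2 fold of both cKO libraries with its SE (grey diamonds). Slc6a11 lies near -1 in both libraries, and Abat, Slc12a2 and Slc12a5 lie on opposite sides of 0.

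Gad1 and Gad2 encode the glutamate decarboxylases GAD67, which supplies most of the GABA of the cell body, and GAD65, which is enriched at synaptic terminals. Gad1 (ENSMUSG00000070880, GRCm38 chromosome 2, 70553072 to 70602014, plus strand) had 1385 and 1093 counts in the cKO libraries against 1279 in floxed, which is 71.0 and 58.8 CPM against 71.7 CPM. Gad2 (ENSMUSG00000026787, chromosome 2, 22622205 to 22693874, plus strand) had 1101 and 808 counts in the cKO libraries against 1050 in floxed, which is 56.4 and 43.5 CPM against 58.9 CPM. In both genes cKO 1 was close to floxed and cKO 2 was the low library. The mean in cKO was 64.9 ± 8.58 CPM for Gad1 and 49.9 ± 9.14 CPM for Gad2 (SD, n = 2 each). For Gad1 the ratio to floxed was between 0.917 and 1.07 in cKO 1 and between 0.756 and 0.890 in cKO 2. For Gad2 it was between 0.880 and 1.04 in cKO 1 and between 0.673 and 0.811 in cKO 2. The difference between the cKO libraries was thus larger than the counting error in both genes. The fitted log2 folds were -0.13 (SE 0.15) for Gad1 and -0.22 (SE 0.18) for Gad2, with an edgeR adjusted p of 1 for each.

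The count ratio of Gad1 to Gad2 within a library does not depend on library scaling. It was 1.26 in cKO 1 (exact 95% interval 1.16 to 1.36) and 1.35 in cKO 2 (1.23 to 1.48), against 1.22 in floxed (1.12 to 1.32). The intervals overlapped in all 3 libraries. Relative to floxed the ratio was between 0.920 and 1.16 in cKO 1 and between 0.981 and 1.26 in cKO 2, so a shift between the decarboxylases was not detectable at these depths.

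Slc32a1 encodes VGAT, the transporter that loads GABA and glycine into synaptic vesicles. The gene (ENSMUSG00000037771, chromosome 2, 158610767 to 158615748, plus strand) had 588 and 679 counts in the cKO libraries against 656 in floxed, which is 30.1 and 36.5 CPM against 36.8 CPM. Here cKO 1 was the low library and cKO 2 was level with floxed, the reverse of Gad1 and Gad2. The ratio to floxed was between 0.732 and 0.917 in cKO 1 and between 0.891 and 1.11 in cKO 2. In the fit its log2 fold was -0.12 (SE 0.19), with an edgeR adjusted p of 1. An antisense gene, Gm14205, shares 24.9% of the exon bases of Slc32a1, and the library kit does not mark strand, so reads of the pair cannot be told apart there.

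A list of 23 other markers of the interneuron lineage was measured beside these 3 genes. All 23 were detected in every library, and their summed level was 959.2 and 1011 CPM in cKO against 1090 CPM in floxed. In cKO 1, 12 of the 23 were below floxed and 2 above it beyond counting error, and in cKO 2 the numbers were 9 and 5. Of all genes tested, 16.0% were below and 17.8% above in cKO 1, and 24.5% and 16.1% in cKO 2. Dlx1, a homeobox gene of interneuron precursors, had 203.7 and 192.8 CPM in cKO against 232.0 CPM in floxed, and Lhx6, a factor of interneurons from the medial ganglionic eminence, had 56.0 and 62.9 against 82.9 CPM. Dlx2 had 71.8 and 49.7 against 70.4 CPM, with cKO 2 as the low library as for Gad1 and Gad2, and the neuropeptide gene Sst had 79.5 and 123.9 against 99.99 CPM. Other markers were above floxed in both cKO libraries, among them Sp8 (12.4 and 11.0 against 8.46 CPM) and Calb2 (22.9 and 31.4 against 21.97 CPM). Whatever the size of the difference, 7 of the 23 were above floxed and 16 below it in cKO 1. In cKO 2 the numbers were 8 and 15. Over all genes tested the median log2 ratio to floxed was 0.01 in cKO 1 and -0.04 in cKO 2. Per 1000 counts of the marker list, Gad1 had 74.0 and 58.2 counts in cKO against 65.8 in floxed, Gad2 58.8 and 43.0 against 54.0, and Slc32a1 31.4 and 36.1 against 33.7. On this scale floxed lay between the cKO libraries for all 3 genes. The part of interneuron number in their levels was not tested.

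Slc6a11 encodes GAT-3, a plasma membrane GABA transporter that in the mature brain belongs mainly to astrocytes. The gene (ENSMUSG00000030307, chromosome 6, 114131241 to 114249952, plus strand) had 308 and 264 counts in the cKO libraries against 545 in floxed, which is 15.8 and 14.2 CPM against 30.5 CPM. Both cKO libraries were near one another and far below floxed, with a cKO mean of 14.99 ± 1.11 CPM (SD, n = 2). The ratio to floxed was 0.517 in cKO 1, with an interval from 0.448 to 0.595, and 0.465 in cKO 2, from 0.400 to 0.540. The fitted log2 fold was -1.01 (SE 0.19), with an edgeR unadjusted p of 0.0036 and an adjusted p of 1. Among 11553 genes with a mean of at least 5 CPM, its fold was the 8th lowest and its p the 12th lowest. In the authors' deposited tables, which compare 1 library with 1, its log2 fold was -0.95 in cKO 1 and -1.10 in cKO 2. It was marked significant there for cKO 2 only. That mark is not read here as a difference between the cKO libraries, whose ratios to floxed had overlapping intervals. Its exons overlap no other gene in GENCODE M21.

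The genes with a pattern most like Slc6a11 were sought among 11544 genes of at least 5 CPM, by the Euclidean distance between the pairs of log2 ratios of the cKO libraries to floxed. The nearest was Xkr7, a member of the XK-related family, at a distance of 0.18, with 9.27 and 7.21 CPM in cKO against 15.9 CPM in floxed. Gm43305, an unclassified transcript, followed at 0.27 and the long noncoding RNA AC153370.2 at 0.28. The likeness rests on 3 libraries and a shared control.

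Of the other carriers described here, Slc6a6 also had both cKO libraries below floxed, and Slc6a13 and Slc6a12 did not. Slc6a13 encodes GAT-2, a GABA carrier of the leptomeninges, and had 787 counts in cKO 1 and 1 count in cKO 2, against 450 in floxed. Its level was 40.3 and 0.054 CPM in cKO against 25.2 CPM in floxed, above floxed in one cKO library and nearly undetected in the other. The ratio to floxed in cKO 2 was 0.0021, with an interval from 5.4e-05 to 0.012. Its edgeR log2 fold was -0.33 (SE 1.99, adjusted p = 1). Slc6a12, a betaine and GABA carrier, had 24 and 4 counts in cKO and 17 in floxed.

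Slc6a6, a taurine carrier that also moves GABA weakly, had 127.7 and 104.0 CPM in cKO against 150.5 CPM in floxed, a log2 fold of -0.36 (SE 0.15, edgeR adjusted p = 1). Both cKO libraries lay below floxed. Per kilobase of exon, the mean over the libraries was 15.1 CPM for Slc6a6, 7.53 for Slc6a13 and 3.996 for Slc6a11.

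The order of the libraries for Slc6a13 was that of the meninges markers, 15 of 16 of which were above floxed in cKO 1 and 15 of 16 below it in cKO 2. Over all genes tested the median log2 ratio was 0.01 in cKO 1 and -0.04 in cKO 2. None of the 16 markers was at 0 in any library. Dcn, a matrix proteoglycan gene of fibroblasts, had 56.7 and 2.69 CPM in cKO against 33.9 CPM in floxed. The choroid plexus and cortical hem sum was 1163 and 377.9 CPM in cKO against 1160 CPM in floxed, and the radial glia sum was 32.2% and 25.8% above floxed. The interneuron sum (959.2 and 1011 against 1090 CPM) and the red blood cell sum (1607 and 1297 against 1760 CPM) were below floxed in both cKO libraries. The part of these cells in the levels of Slc6a11 and Slc6a13 was not tested.

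**Figure D3:**
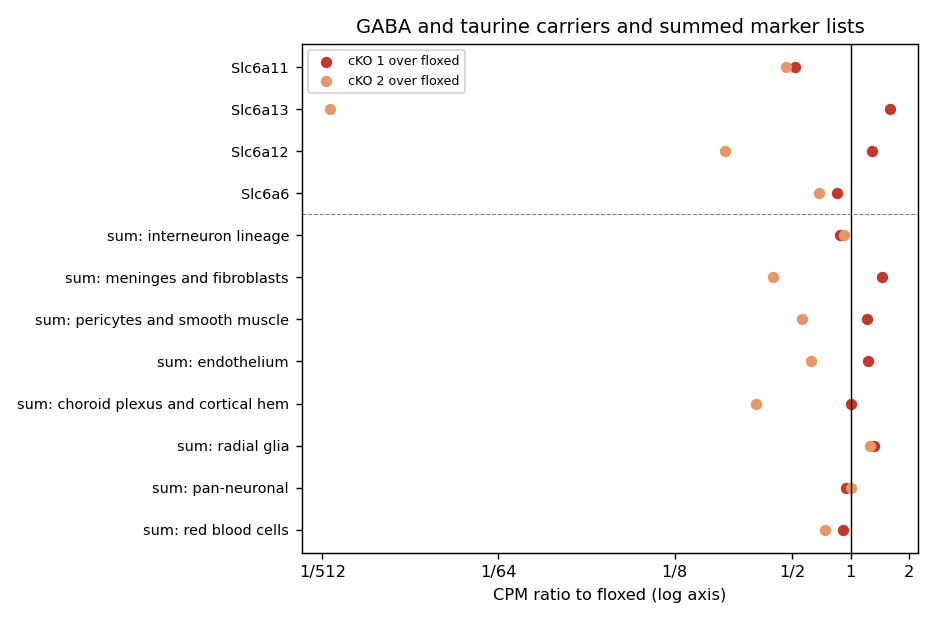
CPM ratio of each cKO library to floxed (horizontal log axis) for 4 carriers of the family (above the dashed line) and for the summed levels of 8 marker lists (below it). Slc6a11 lies at 0.517 and 0.465, and Slc6a13 is on the right of 1 in cKO 1 and far to the left in cKO 2.

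Abat encodes GABA transaminase, the mitochondrial enzyme that starts GABA breakdown. The gene (ENSMUSG00000057880, chromosome 16, 8513429 to 8621568, plus strand) had 1022 and 699 counts in the cKO libraries against 856 in floxed, which is 52.4 and 37.6 CPM against 48.0 CPM. Floxed lay between the cKO libraries, and the cKO mean was 45.0 ± 10.4 CPM (SD, n = 2). The ratio to floxed was between 0.996 and 1.20 in cKO 1 and between 0.708 and 0.867 in cKO 2. In the fit its log2 fold was -0.08 (SE 0.21), with an edgeR adjusted p of 1. Aldh5a1, which encodes the succinic semialdehyde dehydrogenase that acts next, had 24.8 and 21.3 CPM in cKO against 27.2 CPM in floxed (log2 fold -0.22, SE 0.18, edgeR adjusted p = 1).

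Slc12a2 and Slc12a5 encode NKCC1 and KCC2, the chloride importer and exporter. Slc12a2 (ENSMUSG00000024597, chromosome 18, 57878678 to 57946821, plus strand) had 896 and 570 counts in the cKO libraries against 680 in floxed, which is 45.9 and 30.7 CPM against 38.1 CPM. Slc12a5 (ENSMUSG00000017740, chromosome 2, 164960802 to 164999731, plus strand) had 724 and 975 counts in the cKO libraries against 894 in floxed, which is 37.1 and 52.5 CPM against 50.1 CPM. The importer was above floxed in cKO 1 and below it in cKO 2, and the exporter ran the other way. The ratio of Slc12a2 to floxed was between 1.09 and 1.33 in cKO 1 and between 0.719 and 0.901 in cKO 2. That of Slc12a5 was between 0.670 and 0.817 in cKO 1 and between 0.955 and 1.15 in cKO 2. The fitted log2 folds were 0.02 (SE 0.25) and -0.14 (SE 0.25), with an edgeR adjusted p of 1 for each.

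Within a library the importer had 1.24 counts per count of the exporter in cKO 1 (exact 95% interval 1.12 to 1.37) and 0.585 in cKO 2 (0.526 to 0.649), against 0.761 in floxed (0.687 to 0.841). The intervals of the 3 libraries did not overlap, and floxed lay between the cKO libraries. Relative to floxed the ratio was 1.63 in cKO 1 (1.41 to 1.88) and 0.769 in cKO 2 (0.664 to 0.890). The mean log2 difference from floxed was 0.16 ± 0.77 (SD, n = 2), smaller than its spread. An exact two-sided permutation test of 2 libraries against 1 cannot go below p = 0.333. The libraries had the same order in the sums of the meninges, endothelium and pericyte lists, and the part of these cells in the ratio was not tested.

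**Figure D4:**
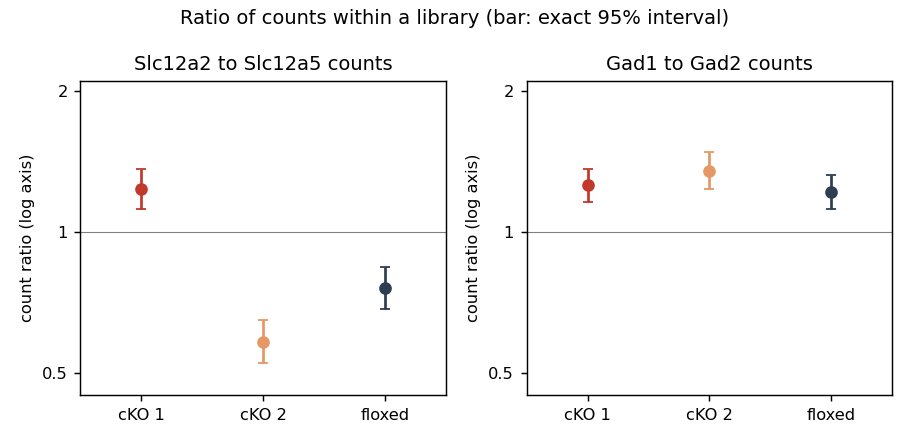
Count ratio within each library (log axis) of Slc12a2 to Slc12a5 and of Gad1 to Gad2, with exact 95% intervals. The first ratio is 1.24 and 0.585 in cKO and 0.761 in floxed with separate intervals, and the second lies between 1.22 and 1.35 in all 3 libraries.

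Other chloride genes were read from the same fit. Slc12a7, which encodes the potassium-chloride exporter KCC4, had 36.3 and 32.6 CPM in cKO against 41.9 CPM in floxed. Both cKO libraries were below floxed (log2 fold -0.27, SE 0.15, edgeR adjusted p = 1). Slc12a4, which encodes KCC1, had 17.3 and 10.1 CPM in cKO against 15.9 CPM in floxed, so floxed lay between the cKO libraries (log2 fold -0.20, SE 0.36). Stk39, which encodes the kinase SPAK that activates NKCC1 and inhibits KCC2, had 1265 and 948 counts in the cKO libraries against 746 in floxed, which is 64.8 and 51.0 CPM against 41.8 CPM. Both cKO libraries were above floxed, with a fitted log2 fold of 0.48 (SE 0.18), an edgeR unadjusted p of 0.044 and an adjusted p of 1.

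Gabbr1 and Gabbr2 encode the obligate subunits of the GABA-B receptor, the first of which binds GABA and the second of which couples to the G protein. Gabbr1 (ENSMUSG00000024462, chromosome 17, 37045966 to 37075067, plus strand) had 6486 and 5986 counts in the cKO libraries against 6778 in floxed, which is 332.3 and 322.1 CPM against 379.9 CPM. Gabbr2 (ENSMUSG00000039809, chromosome 4, 46662305 to 46991873, minus strand) had 429 and 483 counts in the cKO libraries against 504 in floxed, which is 22.0 and 26.0 CPM against 28.2 CPM. Both cKO libraries lay below floxed in both genes, and the cKO mean was 327.2 ± 7.19 CPM for Gabbr1 and 24.0 ± 2.84 CPM for Gabbr2 (SD, n = 2 each). The ratio to floxed for Gabbr1 was between 0.845 and 0.905 in cKO 1 and between 0.819 and 0.878 in cKO 2. For Gabbr2 it was between 0.682 and 0.887 in cKO 1 and between 0.811 and 1.04 in cKO 2, an interval that includes 1. The fitted log2 folds were -0.20 (SE 0.12) and -0.22 (SE 0.20), with an edgeR adjusted p of 1 for each.

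The list of partners and effectors of the receptor held 12 genes, of which 11 were tested, with a median log2 ratio of 0.17 in cKO 1 and 0.14 in cKO 2, beside 0.01 and -0.04 over all genes tested. In cKO 1, 3 were above floxed and 2 below it beyond counting error, and in cKO 2 the numbers were 4 and 2, where 17.8% and 16.0% of all genes tested were so in cKO 1 and 16.1% and 24.5% in cKO 2. Kctd12, an auxiliary subunit that speeds desensitisation, had 76.9 and 65.3 CPM in cKO against 55.6 CPM in floxed (log2 fold 0.37, SE 0.15, edgeR adjusted p = 1). Kcnj9, a subunit of the GIRK potassium channels that the receptor opens, had 6.30 and 7.75 CPM against 5.60 CPM (log2 fold 0.35, SE 0.33, edgeR adjusted p = 1). Both cKO libraries were above floxed in each.

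Levels of the genes were compared per kilobase of exon, as means over the 3 libraries. Gabbr1 was highest at 44.4 CPM per kilobase, followed by Slc32a1 at 12.3, Gad2 at 9.01, Gad1 at 8.79, Slc12a5 at 6.25, Abat at 5.94, Slc6a11 at 3.996, Gabbr2 at 3.80 and Slc12a2 at 3.50. Gabbr1 and Slc32a1 held the first and the second place in every library. Gad1 and Gad2 exchanged places between libraries, as did Slc12a5 and Abat. Slc6a11 was 9th and 8th in cKO and 7th in floxed, so the last 3 genes are not ordered beyond their spread. Gad1, Gad2, Slc32a1 and Slc12a5 lie on chromosome 2, far from one another.

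The other genes of GABA and chloride handling were taken from 7 lists of 58 genes, 57 of which were in both tables and 54 of which were tested. None passed the edgeR threshold, and 2 had an unadjusted p under 0.05. In cKO 1, 18 were above floxed and 12 below it beyond counting error (33.3% and 22.2%), where 17.8% and 16.0% of all genes tested were. In cKO 2, 9 were above and 26 below (16.7% and 48.1%), where the shares of all genes were 16.1% and 24.5%. These shares also depend on level, and genes of like level were not compared. The median log2 ratio of the 54 was 0.08 in cKO 1 and -0.14 in cKO 2, and their median fitted log2 fold was -0.05.

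The lists are given one by one, and differences between them were not tested. The 4 uptake carriers beside Slc6a11 had medians of 0.19 in cKO 1 and -1.34 in cKO 2. Beyond counting error, 1 was above floxed and 1 below it in cKO 1, and 0 above and 4 below in cKO 2. Of all genes tested, 17.8% were above and 16.0% below in cKO 1, and 16.1% and 24.5% in cKO 2. Slc6a13 and Slc6a12, on which the second median partly rests, had only 1 and 4 counts in cKO 2. The 12 chloride channels and bicarbonate exchangers had medians of -0.03 and -0.19. Of these 12, 3 were above floxed and 4 below it in cKO 1, and 0 above and 8 below in cKO 2. The shares of all genes tested are again 17.8% and 16.0% in cKO 1, and 16.1% and 24.5% in cKO 2. The 11 genes of glutamate and glutamine supply had medians of 0.19 and 0.01, with 6 above floxed and 1 below it in cKO 1, and 4 above and 4 below in cKO 2, where the shares of all genes tested were 17.8% and 16.0% in cKO 1 and 16.1% and 24.5% in cKO 2. For the 5 tested cation-chloride cotransporters the medians were -0.13 and -0.36, for the 7 kinases and their scaffold 0.03 and -0.13, and for the 4 tested genes of the GABA shunt 0.14 and -0.24.

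Among the supply genes, Glud1, which encodes glutamate dehydrogenase, had 4033 and 3514 counts in the cKO libraries against 2564 in floxed, which is 206.6 and 189.1 CPM against 143.7 CPM. Both cKO libraries were above floxed, with a fitted log2 fold of 0.48 (SE 0.13), an edgeR unadjusted p of 0.014 and an adjusted p of 1. Slc1a3, which encodes the glutamate carrier GLAST of radial glia and astrocytes, had 151.5 and 116.3 CPM in cKO against 104.6 CPM in floxed (log2 fold 0.37, SE 0.18, edgeR adjusted p = 1). Slc1a3 is also one of the 14 radial glia markers, whose sum was above floxed in both cKO libraries, and the part of radial glia in the level of Glud1 was not tested.

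**Figure D5:**
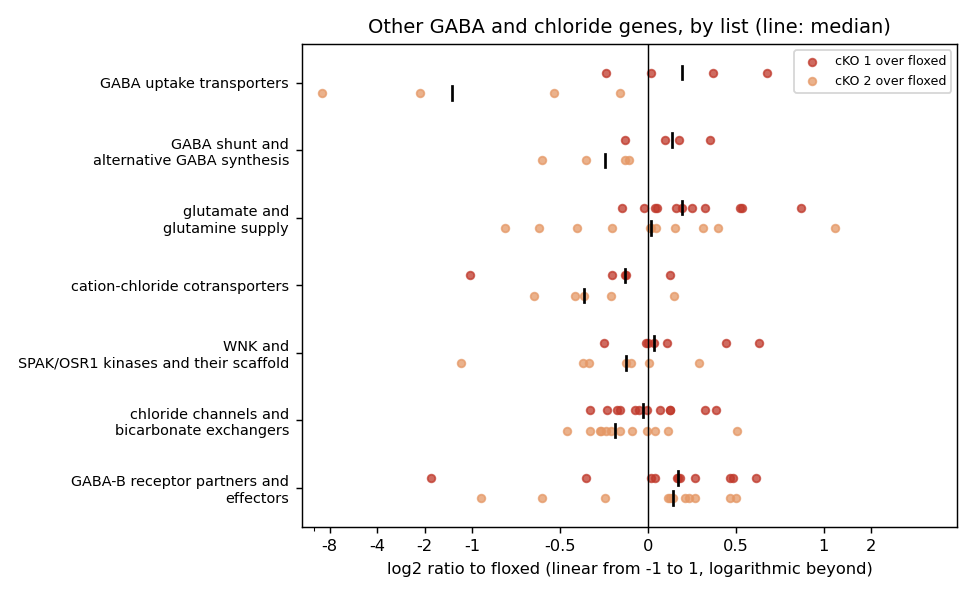
Log2 ratio of each cKO library to floxed for the 54 tested genes of 7 lists (points; horizontal axis linear from -1 to 1 and logarithmic beyond), with the median as a black line. The uptake carriers lie at a median of 0.19 in cKO 1 and -1.34 in cKO 2, and the receptor partners at 0.17 and 0.14. Of the uptake carriers, Slc6a13 and Slc6a12 had only 1 and 4 counts in cKO 2.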

How the data were processed

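The authors deposited 2 tables of raw counts per gene, each of a cKO library beside the same floxed library, per the file headers. The floxed column was identical for all 19968 shared genes and was used once. The names of the columns hold KO or WT but not which sample, so the numbers 1 and 2 are names only, and the other floxed sample was not analysed here. The labels list 2 samples per group where the series' text speaks of triplicates. Nothing says that libraries came from separate animals, and edgeR p-values rest only on the spread between libraries, shared in part over genes. Bowtie2 2.2.3, TopHat2 2.0.12, HTSeq 0.6.0 and mm9 are named, per the submitters' processing notes. Positions in the tables are those of GENCODE M21 (GRCm38) for all 9 genes. The deposited CPM values are counts per library total, from which the totals were read, and the deposited fold (a ratio), log2 fold and p-values are the authors' comparison of 1 library with 1, by a test not given in the sources used here.

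CPM and ratios here use library totals. Ratios carry exact (Clopper-Pearson) 95% intervals, which cover counting error only, since reads carry no molecular identifiers. The fit used edgeR 4.0.16 in R 4.3.3, with a minimum count of 10, TMM factors of 1.01, 0.979 and 1.01 for cKO 1, cKO 2 and floxed, and adjustment over 16725 genes. It has 1 residual degree of freedom, from the cKO libraries, and floxed is assumed to vary like them. The spread of each gene was drawn toward that of all genes, with a median prior of 3.71 degrees of freedom. Each SE and p-value thus rests largely on the spread of other genes. SE is the log2 fold divided by the square root of F. CPM are scaled to 1000000 counts. The edgeR steps were tested on simulated data. Alternatives were library totals without TMM, no filter, DESeq2 1.42.0 and leaving out each cKO library. Lengths are exon bases of GENCODE M21.

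The 9 genes, the lists and the markers were chosen with earlier results of these data known. Named from the lists were genes of at least 5 CPM with an edgeR unadjusted p under 0.05, the 6 with the largest absolute log2 fold, and Slc6a13, Aldh5a1, Slc12a4 and Slc12a7, apart from genes that are not reported here; Slc6a12 and the marker genes were named after their values were seen. The title of 1 sample per group adds the word Blood, unexplained. Summed red blood cell markers were 1607 and 1297 CPM in cKO and 1760 CPM in floxed.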

Additional observations from a re-analysis of the deposited data

How the results depend on the processing

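Every tested alternative (library totals without TMM, no filter on low counts, DESeq2) kept the direction of the 9 genes and of the 10 named list genes, and called none of them. Over all genes, library totals called 1 gene (Ptx3) and DESeq2 called 5, where edgeR with TMM called 0. The DESeq2 calls were Fgf15, Fgfbp3, Gabra2, Moxd1 and Ptx3. Leaving out a cKO library leaves 1 library against 1 and gives values with no test. Without cKO 1 and without cKO 2, the log2 fold of Slc6a11 was -1.06 and -0.96, and that of Gabbr1 was -0.20 in both cases. The median of the 9 genes lay between -0.24 and -0.20. Directions turned with the library left out for Slc32a1 (-0.29 to 0.032), Abat (-0.31 to 0.12), Slc12a2 (-0.27 to 0.26), Slc12a5 (-0.44 to 0.11), Slc6a13 (-7.25 to 0.67) and Slc12a4 (-0.60 to 0.11). The log2 ratio of Slc12a2 to Slc12a5 relative to floxed lay between -0.38 and 0.70. The cause was not tested. The folds of genes with a cKO library left out use TMM and a prior count of 2. The ratio of Slc12a2 to Slc12a5 uses counts alone. The lone floxed library could not be left out. No paired analysis was possible because the floxed group had 1 library.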
